A study of Mus musculus with 6 samples.

Results

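Fibroblast growth factors (FGFs) and their receptors were followed in the retinal pigment epithelium (RPE) of light-damaged and dark-adapted mice. The genes were the ligands Fgf1, Fgf2 and Fgf9 and the receptors Fgfr1, Fgfr2 and Fgfr3, 6 of the 18193 genes measured, taken by gene symbol, a choice made with earlier results of these data known. The RPE is the epithelium behind the photoreceptors that recycles visual pigment and engulfs shed outer segments. All mice were BALB/c, an albino strain, and all spent 1 week in the dark. Light-damaged mice (3 samples) then stood under white fluorescent light of 6000 lux for 1.5 hours, and their RPE was taken 24 hours later. Dark-adapted control mice (3 samples) had the dark period without that exposure. Each sample was hybridised to 1 Affymetrix array, so 6 arrays limit the precision. The labels give no sex or age, and do not say whether a sample came from 1 animal or a pool, so the p-values cover only how these samples vary, a spread that may be technical.

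FGFs are extracellular ligands that bind receptor tyrosine kinases together with heparan sulfate chains, and the bound receptors signal mainly through the RAS-ERK cascade, phosphoinositide 3-kinase and phospholipase C gamma. Cells limit this signal with inhibitors that the pathway itself induces, among them the Sprouty and Spred proteins and the phosphatases that switch off ERK. In the eye, FGF signals steer early retinal tissue away from the pigment epithelial fate, and in rats injected FGF2 slows the loss of photoreceptors after damaging light.

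Values are log2 expression per probe set. A gene was represented by its brightest probe set, and the dimmer ones served as a check. Differences subtract dark-adapted from light-damaged values in log2 units, ± the standard error of a limma fit in which arrays of the same replicate number form a pair, and "rose" or "fell" means a Benjamini-Hochberg adjusted p under 0.05 over all genes. A range after a difference is its 95% interval.

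Fgf1 fell in light-damaged RPE, and it was the only one of the 6 genes to pass the test. The receptor Fgfr2 had a difference of the same size that did not pass, Fgfr1 and Fgf2 had differences above 0, and Fgf9 and Fgfr3 had differences below 0, none of them past the threshold. The test called 4.99% of all genes, 3.07% higher and 1.92% lower, so 1 call among 6 genes is a small count that says little about the group. At an unadjusted p under 0.05 there were 3 of the 6 (Fgf1, Fgfr2 and Fgfr1), against 19.0% of all genes. The same 3 went the same way in 3 of 3 pairs, as did 40.7% of all genes. The median of the absolute differences was 0.27 for the 6 genes and 0.11 for all genes. In a fit without pairs no member passed in limma, 1 of the 6 (Fgf1) had an unadjusted p under 0.05, and over all genes 0.0495% were called and 5.94% had an unadjusted p under 0.05.

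**Figure D1:**
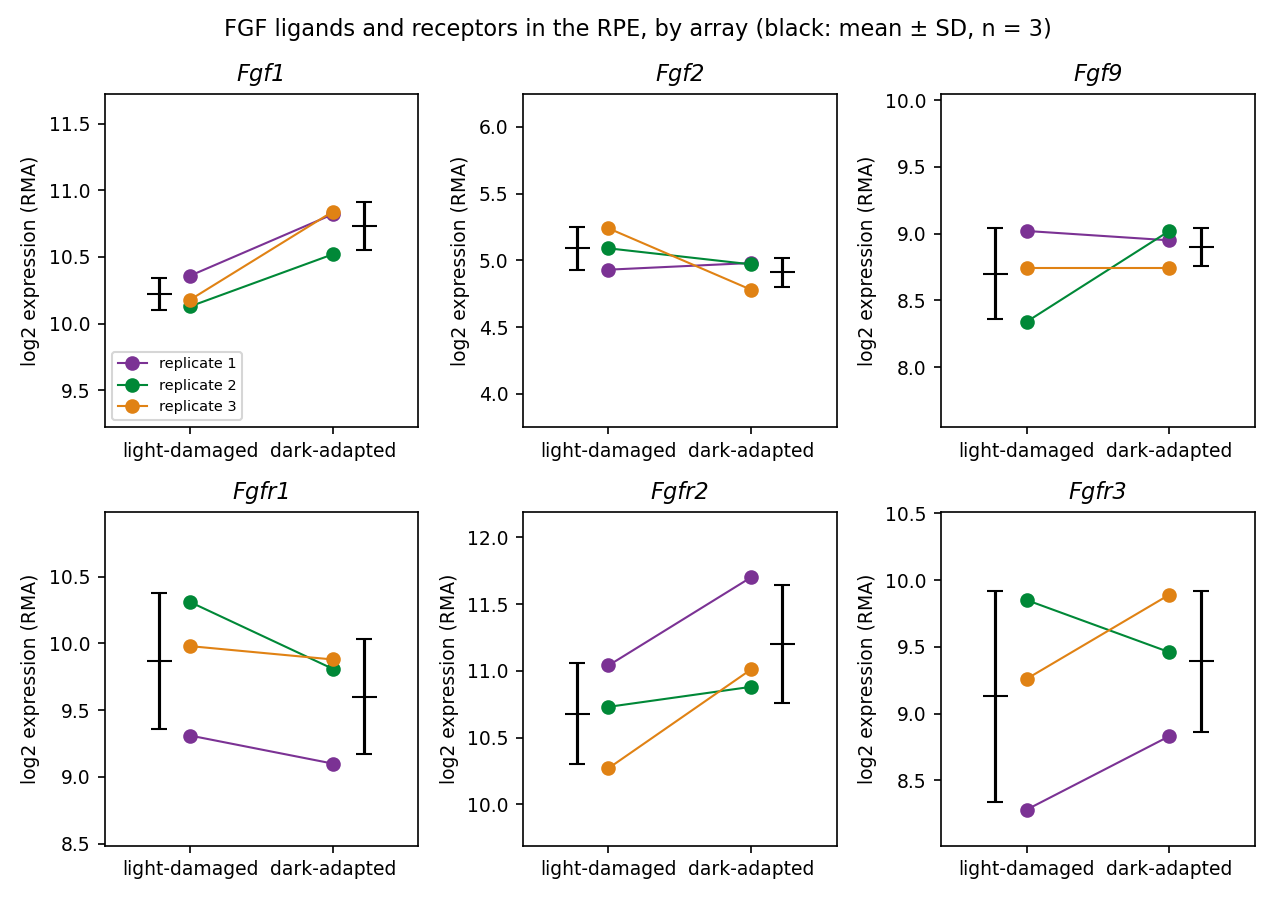
Log2 expression of the 6 genes on each array, light-damaged on the left and dark-adapted on the right of each panel, with lines joining arrays of the same replicate number and black bars for the mean ± SD (n = 3). All panels span the same number of log2 units, and each centres on its own gene. For Fgf1 all 3 light-damaged arrays lie below all 3 dark-adapted arrays, and for the other 5 genes the groups overlap.

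Several features of the arrays bear on these values. In both groups the arrays of replicate 1 stood apart, with a difference between the 3′ and 5′ control probe sets of Gapdh of 2.48 (light-damaged) and 2.45 (dark-adapted) against 1.54 to 1.80 on the other 4 arrays. The 18S ribosomal RNA control probe sets averaged 10.72 on the light-damaged and 11.38 on the dark-adapted replicate 1 array, against 12.98 to 13.30 on the other 4. Replicate 1 thus stood further apart in the light-damaged group by this measure, which pairing need not remove. The part of this in the pair 1 differences was not tested. The RPE gene Rpe65, which encodes the visual cycle isomerase, read 13.10 to 14.21 in light-damaged and 14.14 to 14.59 in dark-adapted samples. The rod arrestin gene Sag read 14.25 to 14.49 in light-damaged and 14.38 to 14.56 in dark-adapted samples, so RNA of photoreceptors was present in both groups. The summed linear level of 14 RPE markers was 93940 to 124900 in light-damaged and 127500 to 160600 in dark-adapted samples. All 14 had differences below 0 (median -0.37), 11 had an unadjusted p under 0.05 and 1 fell. For 16 photoreceptor markers the sum was 79290 to 121600 in light-damaged and 111100 to 153500 in dark-adapted samples. All 16 had differences below 0 (median -0.56), 14 had an unadjusted p under 0.05 and 8 fell. For 18 macrophage and microglia markers it was 40080 to 56420 in light-damaged and 28270 to 38510 in dark-adapted samples, and 15 rose. For 14 markers of Müller glia and astrocytes the sum was 71740 to 92970 in light-damaged and 82800 to 102100 in dark-adapted samples. Of these 14, 9 had differences below 0 (median -0.25), 9 had an unadjusted p under 0.05, 2 (Vim and Gfap) rose and 1 (Car14) fell. Rlbp1 was counted both there and among the RPE markers. Of 15 markers of inner retinal neurons 12 had differences below 0 (median -0.35), 5 had an unadjusted p under 0.05 and none passed. In such bulk samples, fewer cells of a type and less RNA per cell cannot be told apart, and RMA values have no zero by which a marker could be called absent. For markers of melanocytes (8), pericytes and fibroblasts (12), endothelium (14) and neutrophils (7), the calls were 1 lower, 3 higher, 1 higher and 2 higher. For comparison with all the marker counts, 4.99% of all genes were called and 19.0% had an unadjusted p under 0.05. The 2 neutrophil markers called were S100a8 and S100a9. The other 5 (Ngp, Camp, Mpo, Elane and Cxcr2) had differences from -0.10 to 0.21, and the list median was 0.08. All 8 melanocyte markers had differences below 0 (median -0.29). The melanocyte marker called was Pmel, a pigment gene that RPE also expresses, so that call cannot be assigned to melanocytes. The part of these shifts in the values of the FGF genes was not tested.

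Among the ligands, Fgf1 comes first. Its product, acidic FGF, lacks a classical secretion signal and can activate all FGF receptors. The brightest probe set (1423136_at) read 10.36, 10.13 and 10.18 in light-damaged replicates 1, 2 and 3, against 10.82, 10.52 and 10.84 in dark-adapted replicates 1, 2 and 3. The groups did not overlap, which held for 10.3% of all genes, and the light-damaged array was lower in each pair, by differences of -0.46, -0.40 and -0.66. Fgf1 averaged 10.22 ± 0.12 in light-damaged and 10.73 ± 0.18 in dark-adapted samples (SD, n = 3 each). The difference was -0.51 ± 0.10 (-0.74 to -0.28), a level 0.703 times that of dark-adapted samples, with a limma adjusted p of 0.0358. Of all genes, 2.71% had a difference as low or lower. The call needed the pairs, since without them the adjusted p was 0.455. Without replicate pair 1, which stood apart, the difference was -0.53 (limma adjusted p = 0.0328). The call was lost without pair 2 (-0.56, adjusted p = 0.0592) and without pair 3 (-0.43, adjusted p = 0.240). Calls over all 18193 genes also became fewer, 677 without pair 2 and 228 without pair 3, against 908 with all pairs.

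The other probe sets of Fgf1 gave smaller differences. The second (1450869_at), for which the platform annotation cites the same sequence entry as for the brightest, read 9.11, 8.67 and 8.68 in light-damaged replicates 1 to 3 and 9.22, 8.71 and 8.97 in dark-adapted replicates 1 to 3. Its difference was -0.15 ± 0.09 (-0.37 to 0.08) and it was lower in 3 of 3 pairs, with overlapping groups. The dimmest (1441042_at) had a difference of -0.05 ± 0.09 (-0.27 to 0.16), with 2 of 3 pairs lower. Within an array, the brightest probe set exceeded the second by 1.40 ± 0.13 in light-damaged and 1.76 ± 0.15 in dark-adapted samples (SD, n = 3 each), and these 2 ranges did not overlap. Matched by replicate number, this excess was smaller after light damage for all 3 replicates, with a mean change of -0.36. An exact two-sided permutation test over 20 assignments gave p = 0.10, the smallest it can give. After adjustment over the 8 such comparisons made in the 6 genes, the p of this test was 0.80. The test left out the pairs and could not reach 0.05, so it cannot decide whether the 2 probe sets differ in their change. Averaging the 3 probe sets gave a difference of -0.24 and ended the call (limma adjusted p = 0.182).

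Fgf2 encodes basic FGF, like Fgf1 a ligand without a classical secretion signal. Its 1 probe set read 4.93, 5.09 and 5.24 in light-damaged replicates 1 to 3 and 4.98, 4.97 and 4.78 in dark-adapted replicates 1 to 3. These are values near the bottom of the arrays' range, which ran from 3.72 to 14.82 with array medians of 7.43 to 7.48, and RMA compresses differences there. Light-damaged replicates 2 and 3 were above all dark-adapted arrays and replicate 1 was below 2 of them. Pair differences were -0.05, 0.13 and 0.46, and the mean difference was 0.18 ± 0.12 (-0.11 to 0.46), with a limma adjusted p of 0.507. The interval thus reached from slightly below 0 to a clearly higher level.

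Fgf9 encodes a secreted FGF which in mouse embryos helps to set the boundary between neural retina and RPE. It read 9.02, 8.34 and 8.74 in light-damaged replicates 1 to 3 and 8.95, 9.02 and 8.74 in dark-adapted replicates 1 to 3. Light-damaged replicate 2 alone lay below the dark-adapted range. The pair differences were 0.07, -0.68 and 0.00, the mean difference was -0.20 ± 0.16 (-0.58 to 0.17), and the limma adjusted p was 0.581. Without pair 2 it was 0.04. The dimmer probe set of Fgf9 gave the same mean, -0.20 ± 0.10 (-0.43 to 0.03), from pair differences of -0.13, -0.08 and -0.38, all below 0.

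The receptor Fgfr1 is the broadly expressed receptor of the family, and its mesenchymal splice forms bind Fgf1, Fgf2 and Fgf9. It read 9.31, 10.31 and 9.98 in light-damaged replicates 1 to 3, against 9.10, 9.81 and 9.88 in dark-adapted replicates 1 to 3. Each light-damaged array was above its partner, by 0.21, 0.50 and 0.10. Both replicate 1 arrays were low, and the groups overlapped because light-damaged replicate 1 lay below dark-adapted replicates 2 and 3. The difference was 0.27 ± 0.11 (0.02 to 0.53), with an unadjusted p of 0.0399 and a limma adjusted p of 0.233. This probe set carries the s_at suffix, which marks probes that can bind related transcripts. Of its 2 dimmer probe sets, 1425911_a_at gave 0.25 ± 0.10 (0.01 to 0.49), with all light-damaged arrays (6.52 to 6.94) above all dark-adapted ones (6.30 to 6.51). The other, 1436551_at, gave 0.07 ± 0.09 (-0.16 to 0.29), with 2 of 3 pairs higher.

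Fgfr2 occurs as an epithelial and a mesenchymal splice form that differ in the ligands they bind. It read 11.04, 10.73 and 10.27 in light-damaged replicates 1 to 3 and 11.70, 10.88 and 11.01 in dark-adapted replicates 1 to 3. All pairs were lower in the light-damaged array, by differences of -0.67, -0.15 and -0.74, and light-damaged replicate 1 overlapped the dark-adapted range. The difference was -0.52 ± 0.13 (-0.84 to -0.20), a level 0.698 times that of dark-adapted samples, and 2.57% of all genes had a difference as low or lower. Its limma adjusted p of 0.0881 missed the threshold with all arrays. Without pair 2 it passed (-0.70, adjusted p = 0.0223), and without pair 1 or pair 3 the differences were -0.45 and -0.41 and did not pass. This probe set too ends in s_at. The next brightest, 1420847_a_at, gave -0.22 ± 0.12 (-0.50 to 0.05), its light-damaged arrays (7.56 to 7.94) lying below its dark-adapted ones (7.94 to 8.07), by less than the rounding at the nearest point. The dimmest, 1443211_at, gave 0.04 ± 0.08 (-0.16 to 0.25).

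Fgfr3 is best known as a brake on the growth of cartilage, and in the retina it is found in glia and neurons. Of the 6 genes it spread most between replicates, reading 8.28, 9.85 and 9.26 in light-damaged replicates 1 to 3 and 8.83, 9.46 and 9.89 in dark-adapted replicates 1 to 3. Pair 2 was higher in the light-damaged array by 0.39, and pairs 1 and 3 were lower, with differences of -0.55 and -0.63. The mean difference was -0.26 ± 0.20 (-0.74 to 0.22), with a limma adjusted p of 0.569. Without pair 2 it was -0.59 and passed (adjusted p = 0.0456), and without pair 1 it was -0.12. The dimmer probe set, 1425796_a_at, gave 0.09 ± 0.09 (-0.13 to 0.31).

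**Figure D2:**
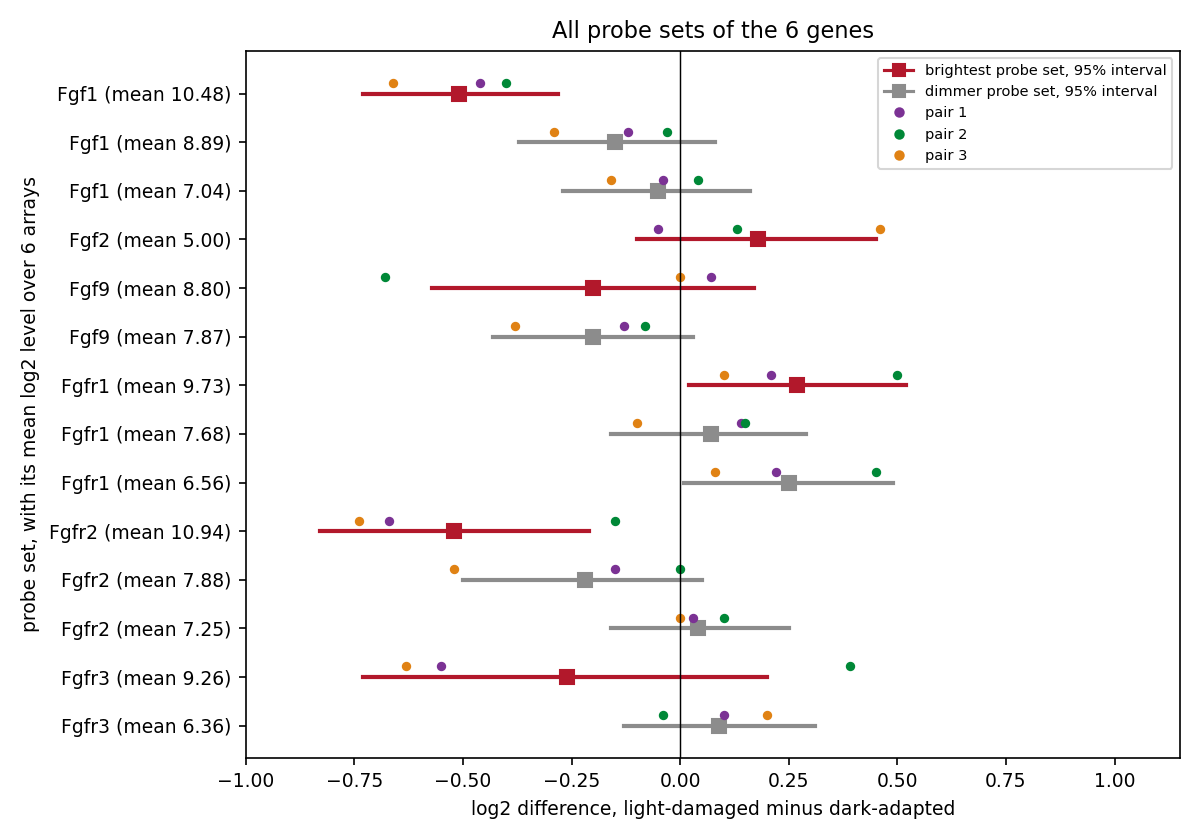
Log2 difference, light-damaged minus dark-adapted, for all 14 probe sets of the 6 genes, with the 95% interval of the fit over probe sets as a bar and the 3 pair differences as dots. Red marks the brightest probe set of a gene and grey the 8 dimmer ones, which are closer to 0 than the brightest for Fgf1, Fgfr1, Fgfr2 and Fgfr3 and equal to it at 2 decimals for Fgf9.

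Taken over the 8 dimmer probe sets, 6 had the sign of the brightest and 2 the opposite sign, those being the dimmest of Fgfr2 and that of Fgfr3. None of the 8 was called in limma over 34945 probe sets, and 1 of the 8 (of Fgfr1) had an unadjusted p under 0.05, as had 17.3% of all probe sets. The receptors also differed between replicates within a group. Compared with the mean of replicates 2 and 3, replicate 1 of Fgfr3 was lower by a difference of -1.27 in light-damaged and -0.84 in dark-adapted samples. For Fgfr1 these differences were -0.83 in light-damaged and -0.75 in dark-adapted samples. For Fgfr2, replicate 1 was higher, by 0.53 in light-damaged and 0.76 in dark-adapted samples. A shift of at least 0.5 in both groups was seen downward in 15.0% and upward in 6.44% of all genes. Each receptor's light-dark difference was smaller than or close to its shift between replicates. The standard error with pairs and without them was 0.11 and 0.32 for Fgfr1, 0.13 and 0.29 for Fgfr2, and 0.20 and 0.45 for Fgfr3. For Fgf1, whose replicate 1 shifts were 0.20 in light-damaged and 0.14 in dark-adapted samples, the errors were 0.10 and 0.14.

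For each of the 6 genes, the 2 genes with the most similar profile over the 6 arrays were found by Pearson's r, as a description, since the 6 points share pairs and groups and the best match among 18193 genes is bound to be close. Fgf1 was closest to Lrfn5 (r = 0.999) and Vamp8 (r = 0.994), Fgf2 to Cldn11 (0.986) and Ptms (0.983), and Fgf9 to Zfp523 (0.994) and Cckbr (0.990). Fgfr1 was closest to Zbtb1 (0.996) and Oplah (0.991), Fgfr2 to Tmem232 (0.991) and Elmo3 (0.986), and Fgfr3 to Lrp4 (0.991) and AI413582 (0.990). None of these 12 genes was called.

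Around the 6 genes, 98 further genes of the FGF pathway were measured in 7 lists. Of these 6 were called, 4 higher and 2 lower, which is 6.12% against 4.99% of all genes, and the median difference was -0.05 against 0.00 for all genes. The 6 were Stat3, Sulf2, Spred3 and Fosl1, which rose, and Dusp4 and Il17rd, which fell. All 6 were also among the 11 called without the replicate 1 arrays, where 6.84% of all genes were called. Without pair 3 only Stat3 was called, in a fit that called 228 of all 18193 genes against 908 with all pairs. Without pairs in the fit none was called, as against 9 of all genes, the smallest limma adjusted p of these 6 being 0.259 for Stat3.

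Inhibitors and targets of FGF signalling held 4 of those calls among 17 genes, in both directions, with a list median of 0.06. That is 23.5% against 4.99% of all genes, in a list chosen with earlier results of these data known. An unadjusted p under 0.05 was found for 8 of the 17, against 19.0% of all genes. Il17rd, which encodes the membrane inhibitor Sef, read 8.22, 8.84 and 8.73 in light-damaged replicates 1 to 3, against 9.11, 9.21 and 9.49 in dark-adapted replicates 1 to 3. The groups did not overlap, and Il17rd fell by 0.67 (-0.67 ± 0.12, limma adjusted p = 0.0314), while its dimmer probe set gave -0.01. Dusp4, an ERK phosphatase of the nucleus, read 9.36, 11.17 and 11.41 in light-damaged replicates 1 to 3, against 10.56, 11.57 and 12.09 in dark-adapted replicates 1 to 3. It fell by 0.76 (-0.76 ± 0.15, adjusted p = 0.0455) with overlapping groups. In fits without pairs, where it was not called, the difference of Dusp4 was -0.11 without light-damaged replicate 1, -0.42 without dark-adapted replicate 3 and -1.18 without dark-adapted replicate 1, and adding a pseudocount of 16 ended its call (adjusted p = 0.0578).

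Spred3, a Sprouty-related inhibitor of RAS-ERK signalling, read 7.93, 8.13 and 7.80 in light-damaged replicates 1 to 3, against 7.39, 7.60 and 7.22 in dark-adapted replicates 1 to 3. It rose 1.47-fold (0.55 ± 0.08, limma adjusted p = 0.0202) and the groups did not overlap. Fosl1, the AP-1 subunit Fra-1, read 8.32, 7.63 and 7.60 in light-damaged replicates 1 to 3, against 7.50, 7.17 and 7.16 in dark-adapted replicates 1 to 3. It rose 1.49-fold (0.57 ± 0.11, adjusted p = 0.0365), while its dimmer probe set gave 0.04. Fosl1 had a difference of 0.34 without light-damaged replicate 1 in a fit without pairs, and quantile normalization ended its call (adjusted p = 0.0600). The mean of all probe sets ended the calls of Fosl1 (0.31) and Il17rd (-0.34). Without pair 3 none of these 4 passed, and without pair 2 Spred3 (adjusted p = 0.0549) and Fosl1 (adjusted p = 0.0523) did not. Of the other genes in this list, 7 were looked up after the values were seen, and none of the 7 passed. The ERK phosphatase gene Dusp6 had a difference of -0.58 ± 0.14 (adjusted p = 0.0835) and the Sprouty genes Spry1, Spry2, Spry3 and Spry4 had differences of -0.34, -0.06, -0.68 and 0.09. The ETS factor genes Etv4 and Etv5, which FGF signals induce in many tissues, had differences of -0.12 and 0.13. Egr1, also looked up afterwards and not among the 7, had a difference of 0.47 ± 0.15 (limma adjusted p = 0.164). It was the highest difference among the uncalled genes of this list.

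Heparan sulfate genes, whose products carry, make or trim the sugar chains that FGFs need to bind, held 1 call among 24 (4.17%) and a median of -0.03. An unadjusted p under 0.05 was found for 6 of them, against 19.0% of all genes. Sulf2, an extracellular enzyme that removes sulfate groups from these chains, read 10.48, 11.04 and 11.26 in light-damaged replicates 1 to 3, against 9.86, 10.29 and 10.22 in dark-adapted replicates 1 to 3. It rose 1.75-fold (0.81 ± 0.11, limma adjusted p = 0.0133) without overlap. The probe set ends in x_at and can bind related transcripts, and the 2 other probe sets gave 0.74 ± 0.16 and 0.19 ± 0.09. Restricted to probe sets not ending in s_at or x_at, Sulf2 had a difference of 0.19 and was not called (adjusted p = 0.339). Without pair 3 the adjusted p of Sulf2 was 0.0813. The cell surface proteoglycan genes Sdc4 and Gpc1 had differences of 0.52 ± 0.12 and 0.37 ± 0.11 and Gpc2 one of -0.29 ± 0.09, with adjusted p-values of 0.0627, 0.130 and 0.131. The dimmer probe set of Sdc4 gave 0.09. Of the 24, 5 passed without pair 1 (where 6.84% of all genes did). Without pair 2 it was 1 (677 of all 18193 genes) and without pair 3 it was 0 (228 of all genes).

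Of 19 signal transduction genes, 1 was called (5.26%), 5 had an unadjusted p under 0.05 (against 19.0% of all genes) and the median was -0.11. Stat3, a transcription factor that cytokine receptors and also FGF receptors activate, read 10.29, 10.86 and 10.90 in light-damaged replicates 1 to 3, against 9.37, 9.83 and 9.81 in dark-adapted replicates 1 to 3. It rose 2.02-fold (1.02 ± 0.09, limma adjusted p = 0.0037), with each array of the light-damaged group above each of the other, and it was called without each of the 3 pairs. Its other probe sets gave 1.01, 1.08 and 0.13. Nras, Akt1 and Braf, which relay the signal of many receptors, had differences of 0.30 ± 0.09, 0.28 ± 0.09 and -0.25 ± 0.08, none past the threshold. A dimmer probe set of Nras, with a difference of 0.43 ± 0.09, did pass over all probe sets (adjusted p = 0.0453), while the other gave 0.17 ± 0.20. The 3 dimmer probe sets of Akt1 ran from -0.03 to 0.05 and the 8 of Braf from -0.16 to 0.16. The adaptor genes Grb2, Shc1 and Gab1, looked up after the values were seen, had differences of -0.10, 0.03 and -0.32, likewise not called.

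None of the 15 other extracellular ligand genes passed in limma, and none had an unadjusted p under 0.05. Their differences ran from -0.24 to 0.20 with a median of -0.02, and the smallest p-values were those of Fgf20 (-0.24 ± 0.10), Fgf18 (0.17 ± 0.09), Fgf3 (-0.22 ± 0.14) and Fgf4 (0.14 ± 0.10). Of the 4 FGF homologous factors, which stay inside the cell and bind sodium channels, none passed. An unadjusted p under 0.05 was found for 1 of the 4, against 19.0% of all genes. This was Fgf13 at -0.30 ± 0.12, while Fgf12, Fgf11 and Fgf14 had differences of -0.20, -0.05 and 0.01. The dimmer probe set of Fgf13 gave 0.08 ± 0.11. Fgf13 read 8.02, 9.62 and 10.05 in light-damaged replicates 1 to 3 and 8.56, 9.97 and 10.05 in dark-adapted replicates 1 to 3, another gene with low replicate 1 arrays.

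Of 11 other receptors and co-receptors none passed and 2 had an unadjusted p under 0.05 (against 19.0% of all genes), with a median of -0.11. Those 2 were the adhesion molecule genes Ncam1 (-0.41 ± 0.14) and Cdh2 (0.25 ± 0.08), whose products bind FGF receptors, with adjusted p-values of 0.166 and 0.174. The 6 dimmer probe sets of Ncam1 ran from -0.38 to 0.10, and the dimmer one of Cdh2 gave 0.49 ± 0.11. The membrane protein gene Flrt2 and the FGF-binding protein gene Fgfbp3 had differences of -0.50 ± 0.21 and -0.23 ± 0.10, and 1 of the 11, Flrt2, passed without pair 2. The dimmer probe sets of Flrt2 gave -0.16 and -0.03. The receptor genes Fgfr4 and Fgfrl1, also looked up afterwards, had differences of -0.11 and 0.03. Among 8 genes that regulate the splicing of FGF receptor transcripts, none passed and none had an unadjusted p under 0.05. Khdrbs3, Rbfox2, Hnrnph1 and Esrp2 had differences of -0.28 ± 0.12, 0.20 ± 0.10, -0.30 ± 0.15 and -0.28 ± 0.15. Esrp1, whose product like that of Esrp2 favours the epithelial splice form of Fgfr2, was looked up afterwards and had a difference of -0.11.

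**Figure D3:**
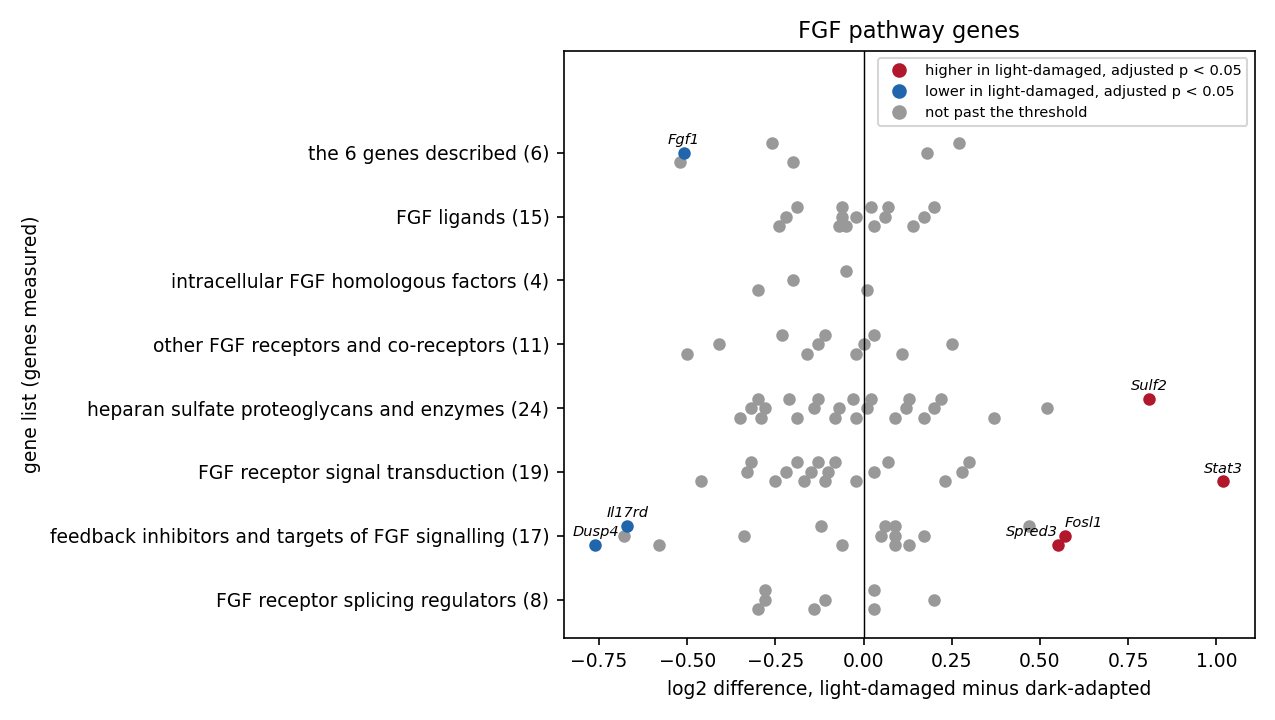
Log2 difference, light-damaged minus dark-adapted, of the 6 genes and of the 98 further pathway genes by list, each dot 1 gene, with the number measured in brackets. Red dots rose and blue dots fell at an adjusted p under 0.05 in the paired fit. Named are Fgf1 and the 6 further genes called, of which 4 are in the list of inhibitors and targets.

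**Figure D4:**
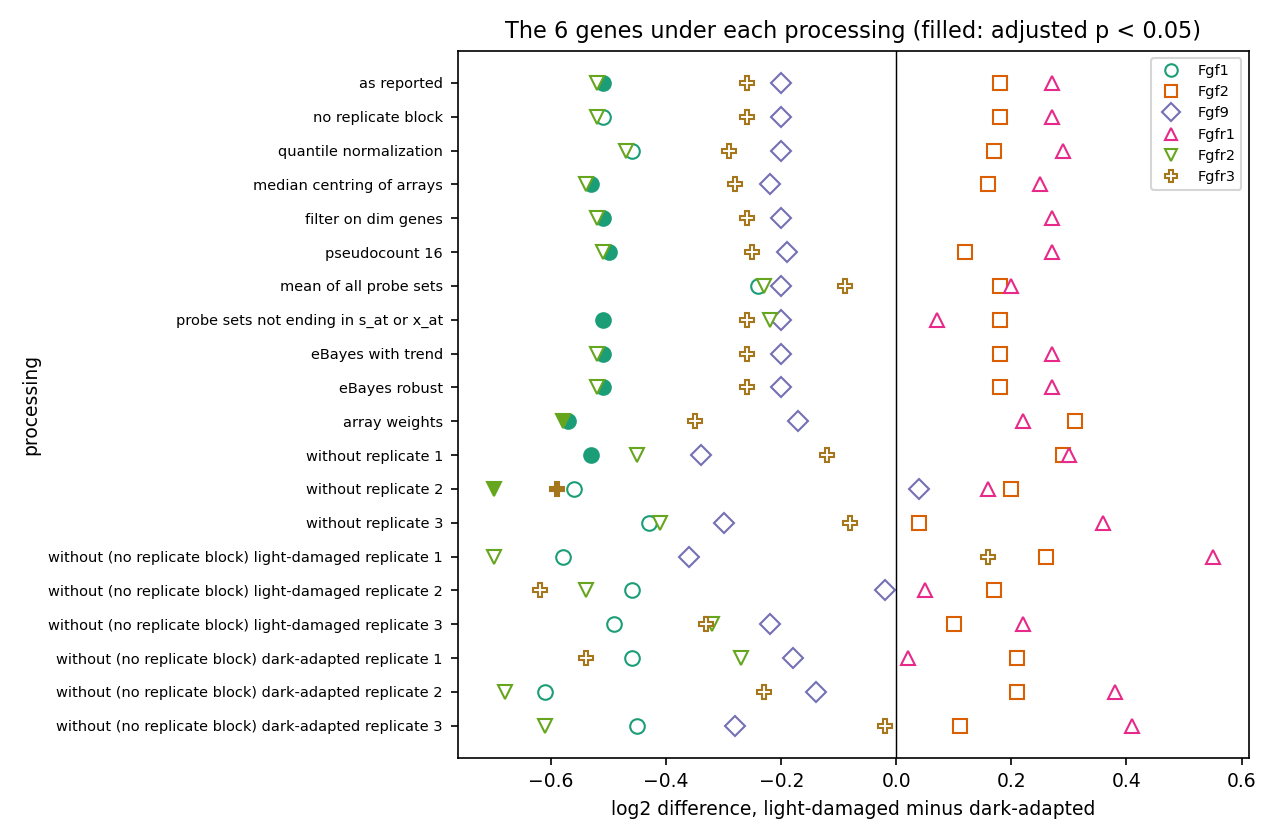
Log2 difference, light-damaged minus dark-adapted, of the 6 genes (symbols) under the reported processing in the top row and under 19 alternatives below it. Filled symbols passed at an adjusted p under 0.05. Fgf1 lies below 0 in all rows and is filled in the top row and 8 others. Fgfr2 is filled in 2 rows and Fgfr3 in 1, and Fgfr3 and Fgf9 each cross 0 in 1 row.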

How the data were processed

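RPE RNA was biotin-labelled for arrays, per the labels' protocols. The deposited table holds log2 values, 1 per probe set and array, made with RMA per the submitters' processing notes. The RMA version is not given in the sources used here, nor is which arrays it joined. The log2 unit was read from the values.

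Of 45101 probe sets, 64 were controls, and the platform annotation, which can be old, gave 34945 a single symbol, 932 several and 9160 none used here. Entrez numbers matched 34741 of them to the RefSeq gene table (GRCm38.p6), and 0 symbols changed. Per gene, the probe set with the highest mean over the 6 arrays was kept (18193 genes). No 2 arrays held the same values. Groups were compared across all genes with limma 3.58.1 in R 4.3.3 (lmFit, eBayes, two-sided), with the replicate number as a block (2 residual degrees of freedom) and, as an alternative, without it (4), with Benjamini-Hochberg adjustment. The code was tested on simulated data with differences larger than that of Fgf1, so recovery of a difference of that size was not tested.

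The labels number replicates 1 to 3 in both groups without saying what a number shares. Across genes, the deviations from the group mean of 2 arrays with 1 number correlated at 0.89, 0.62 and 0.86, all above 0.1. The numbers were taken as pairs. Deviations within a group cancel out, and replicate 1 stood apart in both groups. Replicates 2 and 3 therefore correlate across groups whatever their numbering, so the bound of 0.1 could not test pairs 2 and 3. Light-damaged replicate 3 correlated at 0.65 with dark-adapted replicate 2, and light-damaged replicate 2 at 0.61 with dark-adapted replicate 3, which leaves pairs 2 and 3 open to a crossing.

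The members and lists were chosen with earlier results of these data known. Up to 4 genes per pathway list with the smallest unadjusted p, and 2 genes per member by Pearson's r, were named, and further genes are said to be chosen after their values were seen. Of 109 pathway genes in the lists 98 were measured. Alternatives covered the block, normalization, a pseudocount of 16, dropping dim genes, probe set choice, limma settings, array weights and arrays left out.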

Additional observations from a re-analysis of the deposited data

How the results depend on the processing

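The paired fit called 908 genes. Among 19 alternatives to it, 9 genes were called without the replicate block, 1875 with array weights and 3 to 1245 with arrays left out. Fgf1 kept its direction in all 19 and its call in 8. Its call was lost without the replicate block (-0.51, adjusted p = 0.455), with quantile normalization (-0.46, adjusted p = 0.0571), with the mean of its probe sets (-0.24) and, among 9 settings with arrays left out (-0.61 to -0.43), in all but the one without both replicate 1 arrays. Its adjusted p ran from 0.0064 to 1.0. Fgfr2 was called with array weights (-0.58) and without replicate pair 2, its range with arrays left out being -0.70 to -0.27. With arrays left out Fgfr3 ran from -0.62 to 0.16 and Fgf9 from -0.36 to 0.04. Fgf2 (0.04 to 0.31) and Fgfr1 (0.02 to 0.55) stayed above 0 and uncalled in every alternative that kept them, Fgf2 being too dim for the filter on dim genes. With probe sets not ending in s_at or x_at, Fgfr1 was 0.07 and Fgfr2 -0.22. The 6 calls among pathway genes became 0 without the replicate block, 13 with array weights and 0 to 11 with arrays left out. Fgf14 was -0.01 with quantile normalization and with median centring. With arrays left out the sign also turned for Fgf3 (-0.39 to 0.06), Fgf4 (-0.05 to 0.26), Fgf11 (-0.14 to 0.01), Fgf13 (-0.78 to 0.30), Fgf14 (-0.11 to 0.12), Flrt2 (-0.83 to 0.01), Cdh2 (-0.30 to 0.80), Ncam1 (-0.68 to 0.04), Hnrnph1 (-0.78 to 0.41) and Khdrbs3 (-1.13 to 0.51), none of them called as reported. Dusp4 ran from -1.18 to -0.11 and Fosl1 from 0.34 to 0.70 with arrays left out. The causes were not tested. Fits without a pair have 1 residual degree of freedom and lean on the variance shared across genes. Leaving out 1 array was done without the block, since the block would drop its partner.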
